A study of Mus musculus with 22 samples.

Results

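Glutamate and GABA receptor genes were described across embryoid bodies, floating aggregates of mouse embryonic stem (ES) cells that differentiate towards many tissues. The genes were chosen by symbol alone: the AMPA (Gria), kainate (Grik), NMDA (Grin), delta (Grid) and metabotropic (Grm) glutamate receptor subunits, and the GABA-A (Gabra to Gabrr) and GABA-B (Gabbr) subunits. The rule covers 47 symbols, of which 46 were found among the 19721 genes listed in at least 1 of the 22 libraries; Gabra6 was listed in none. All libraries are of the J1 ES cell line. TBBPA, short for tetrabromobisphenol A and used to make plastics less flammable, was given to embryoid bodies at 10 nM or 100 nM. Each dose has 1 library at each of days 4, 9, 12, 18 and 28, written D4 to D28 after the sample titles. Their reference was 0.1% dimethyl sulfoxide (DMSO), the vehicle, with 2 libraries at each day, and 2 libraries came from untreated ES cells. The labels do not state when exposure began.

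Glutamate and GABA are the main excitatory and inhibitory transmitters of the vertebrate brain. AMPA, kainate and NMDA subunits assemble into cation channels opened by glutamate, and GABA-A subunits into chloride channels opened by GABA. Metabotropic glutamate receptors and the GABA-B receptor act more slowly, through G proteins. Which subunits a neuron makes changes as it matures, and some subunits are also known from cells outside the nervous system.

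Levels of a gene across libraries are given as CPM, estimated counts per 1 M counts of the TMM-adjusted library size, and levels of different genes are compared as the deposited FPKM, which are scaled by length. Total counts were 18158583 to 18998141 per library. A gene rose or fell, or passed, where edgeR's quasi-likelihood test gave an adjusted p under 0.05 over all genes tested. Log2 changes are later minus earlier or TBBPA minus DMSO, each with its standard error (SE). Whether the 2 libraries of a group stem from separate cultures is not stated, so p-values reflect only how far these samples differ, and that may be technical. The counts of the ES libraries differed more from each other (chi-square of 21.2 per gene, where 1 is counting noise) than those of the DMSO pairs (1.61 to 3.25). Summed pluripotency markers (7 genes) stood at 466 and 460 CPM in D28 DMSO embryoid bodies, against 7156 and 7046 CPM in ES cells. Bulk RNA cannot tell fewer cells of a type from less RNA per cell, and that holds for every result here.

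Receptor genes were expressed in every group, and the most abundant of them changed with time. In ES cells the highest mean levels were those of Grin1, at 17.6 FPKM, and Gabbr1, at 17.4 FPKM. From D4 onward Grik5 led, with a mean of 12.5 FPKM at D4 and 32.5 FPKM at D28. At D28 it was followed by Gabrp (13.9 FPKM), Gabbr1 (13.6 FPKM), Gria3 (8.39 FPKM) and Gabbr2 (4.16 FPKM). Gabrp and Gabbr1 at D28 did not differ beyond their spread (SD of 0.0919 and 0.424 FPKM, n = 2 each). The members with at least 1 CPM in both libraries numbered 11 in ES cells, 14 at D4, 13 at D9, 17 at D12, 25 at D18 and 20 at D28 (DMSO). In 17 members 10 CPM was exceeded in at least 1 library, and 6 (Gabrd, Gabrg1, Gabrq, Gabrr1, Gabrr2 and Gabrr3) stayed under 1 CPM in all. The highest DMSO or ES mean was at D18 for 18 members, at D28 for 15, in ES cells for 6, at D4 for 5, and at D9 and D12 for 1 each. This tally did not weigh the spread within pairs. It takes in members near 0, such as Gabrr3 and Gabrg1, whose highest means were 0.0496 and 0.0747 CPM.

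**Figure D1:**
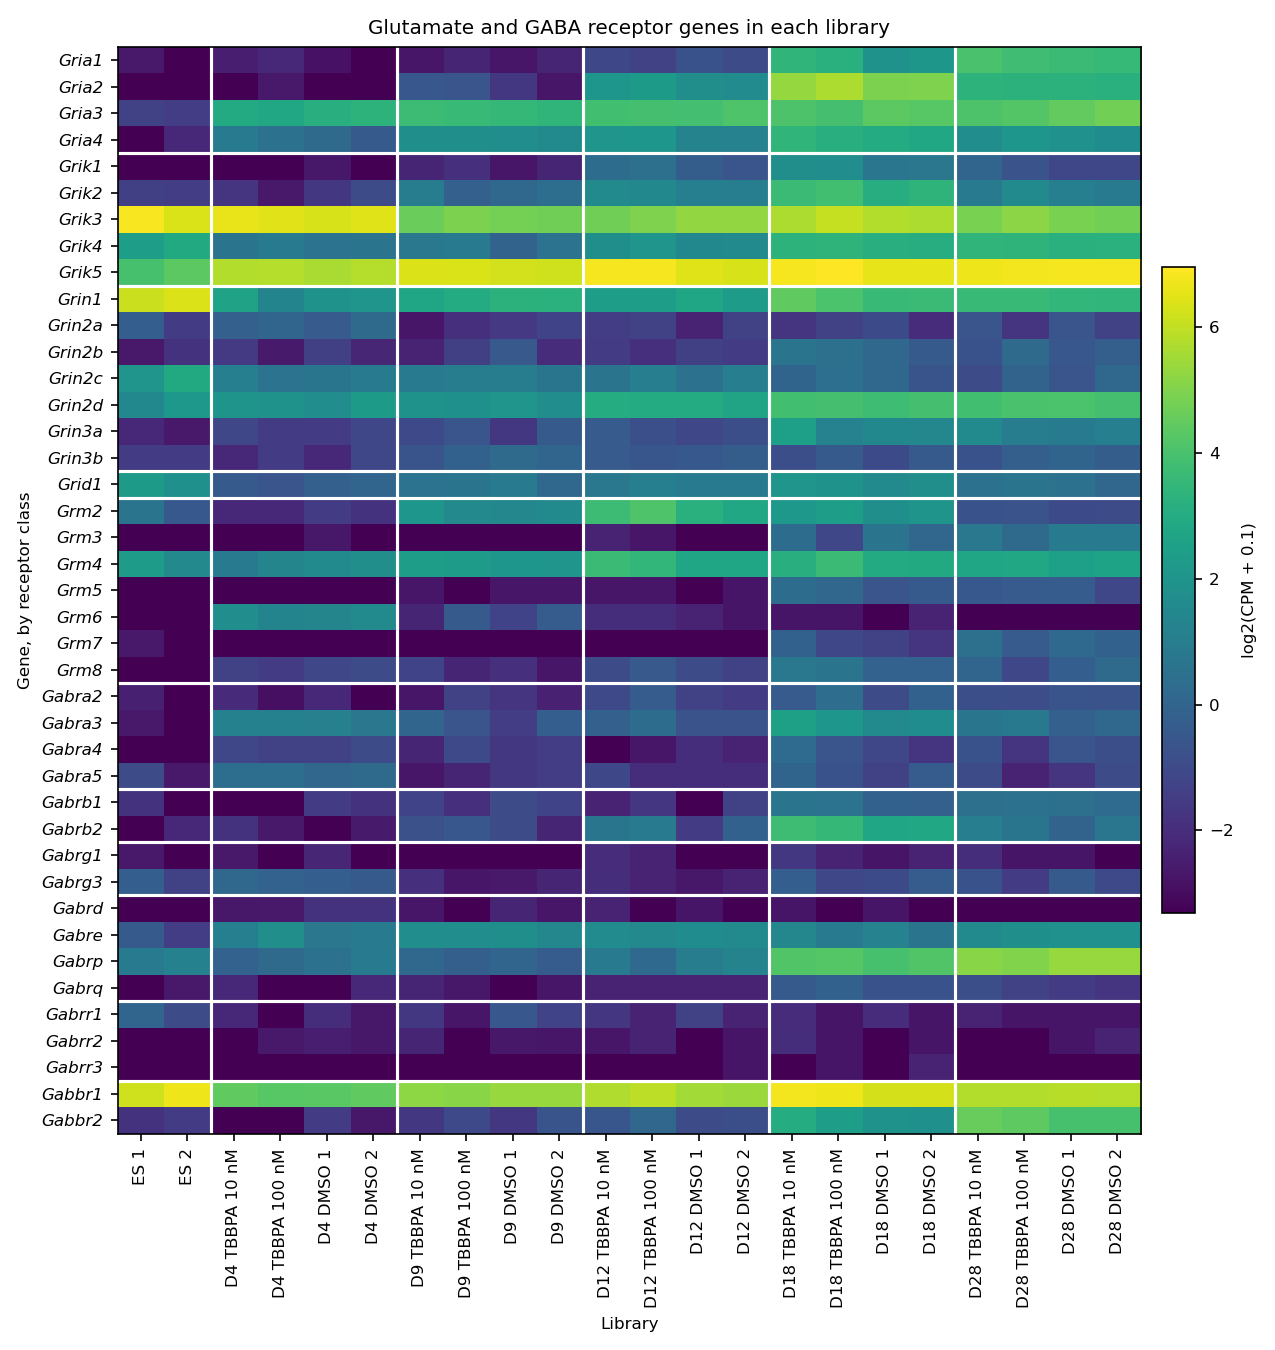
Heat map of log2(CPM + 0.1) for 41 receptor genes (rows, grouped by receptor class) in the 22 libraries (columns, by day, with TBBPA left of DMSO). Grik3, Grik5 and Gabbr1 are bright in every column, Grin1 is brightest in ES cells, and Gria1, Gria2 and Gria4 are brighter at D18 than at D12.

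The step between D12 and D18 moved most of these genes one way. Of the 40 members tested in the control libraries, 29 rose and 1 fell at D18 against D12, with a median log2 change of 1.58 beside 0 over all genes. Of all 16203 genes tested, 37.7% passed at this step, 20.7% upward and 17.1% downward. Leaving out 1 of the 4 libraries gave 20 to 22 members up and 1 or 2 down. DESeq2 gave 19 up and 1 down, and limma on log2(FPKM + 1), where FPKM had to reach 1 in 2 libraries, passed 14 in all. Neuron markers moved at the same step: 9 of 10 rose, none fell, and their summed level was 859 and 885 CPM at D18, against 396 and 415 CPM at D12, with none at 0. In ES cells this sum was 258 and 200 CPM, above D9 (149 and 147 CPM) and D28 (159 and 151 CPM, DMSO), so it does not track neurons alone. Of 7 radial glia and astrocyte markers 6 rose and 1 fell, with a sum of 285 and 277 CPM at D18, against 129 and 126 CPM at D12. Fibroblast markers rose in 5 of 6 and fell in 1, with a sum of 5383 and 5698 CPM at D18, against 2159 and 2074 CPM at D12. All 7 pluripotency markers and all 5 endothelial markers fell. The part of these cell types in the receptor changes was not tested.

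The other steps were split or smaller. Between ES cells and D4, 9 members rose and 8 fell, where 62.3% of all genes passed, 31.9% upward and 30.3% downward. Between D4 and D9, 10 rose and 9 fell (60.8% of all genes, 31.9% upward and 28.9% downward). At D12 against D9, 11 rose and 2 fell (33.1% of all genes, 17.5% upward and 15.6% downward), but the total of 13 was 7 without the second D9 library and 7 without the first D12 library. At D28 against D18, 7 rose and 12 fell (53% of all genes, 24.9% upward and 28.1% downward), while all 10 neuron markers fell, to a sum of 159 and 151 CPM at D28, against 859 and 885 CPM at D18. At that step 6 of 6 fibroblast markers rose, and 5 of 7 radial glia and astrocyte markers rose and 2 fell. Over the whole course, 29 members were higher and 7 lower at D28 than in ES cells, where 83.1% of all genes passed, 45% upward and 38.2% downward. The median of the members was then 2.89 as fitted, and 2.60 with genes at 0 in a group set to the bound that 3 counts over the group allow, beside 0.13 over all genes.

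AMPA receptor genes encode the channels of fast excitatory transmission. Gria3 and Gria4 both rose at D4. Gria3 had 8.79 and 9.81 CPM at D4, against 0.307 and 0.269 CPM in ES cells. Both D4 libraries lay far above both ES libraries (log2 change 5.05 ± 0.27, adjusted p = 9.61e-10). Gria4 had 1.08 and 0.662 CPM at D4, against 0 and 0.122 CPM in ES cells (3.70 ± 0.67, adjusted p = 0.000241). It rose again at D9, with 3.18 and 2.84 CPM at D9, against 1.08 and 0.662 CPM at D4 (1.78 ± 0.29). It stood at 7.87 and 7.15 CPM at D18, against 2.29 and 2.23 CPM at D12, and fell at D28, to 3.55 and 3.13 CPM.

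Gria2 encodes the subunit whose edited form makes AMPA channels nearly impermeable to calcium. It was at 0 in both ES and both D4 libraries, and its 2 libraries held 0.215 and 0.0536 CPM at D9, 3.32 and 3.05 at D12, 30.3 and 31.0 at D18, and 9.5 and 9.15 at D28. The pairs did not overlap at any step after D4. The rise at D18 against D12 was 3.27 ± 0.16 (adjusted p = 1.63e-08), and the fall at D28 against D18 was -1.72 ± 0.14 (adjusted p = 7.29e-07). At D28 it stood at least 102-fold above the ES cells, taking 3 counts over both ES libraries as the floor. Gria1 encodes a subunit known for its part in activity-dependent AMPA receptor insertion, and it kept rising. Its libraries held 0.506 and 0.425 CPM at D12, 3.69 and 4.27 at D18, and 12.8 and 11.8 at D28. Each pair lay above the one before (3.11 ± 0.29 at D18 against D12, 1.62 ± 0.18 at D28 against D18).

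The make-up of the AMPA genes shifted accordingly. Gria3 held 87.7 and 93.0% of the summed AMPA FPKM at D4, 78.5 and 80.8% at D12, 48.0 and 45.0% at D18 and 59.9 and 68.5% at D28 (DMSO). The share of Gria2 was highest at D18, with 31.6 and 33.8%, and that of Gria1 at D28, with 19.7 and 16.2%. The summed AMPA level was 14.3 and 13.7 FPKM at D18, against 6.06 and 6.87 FPKM at D12.

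**Figure D2:**
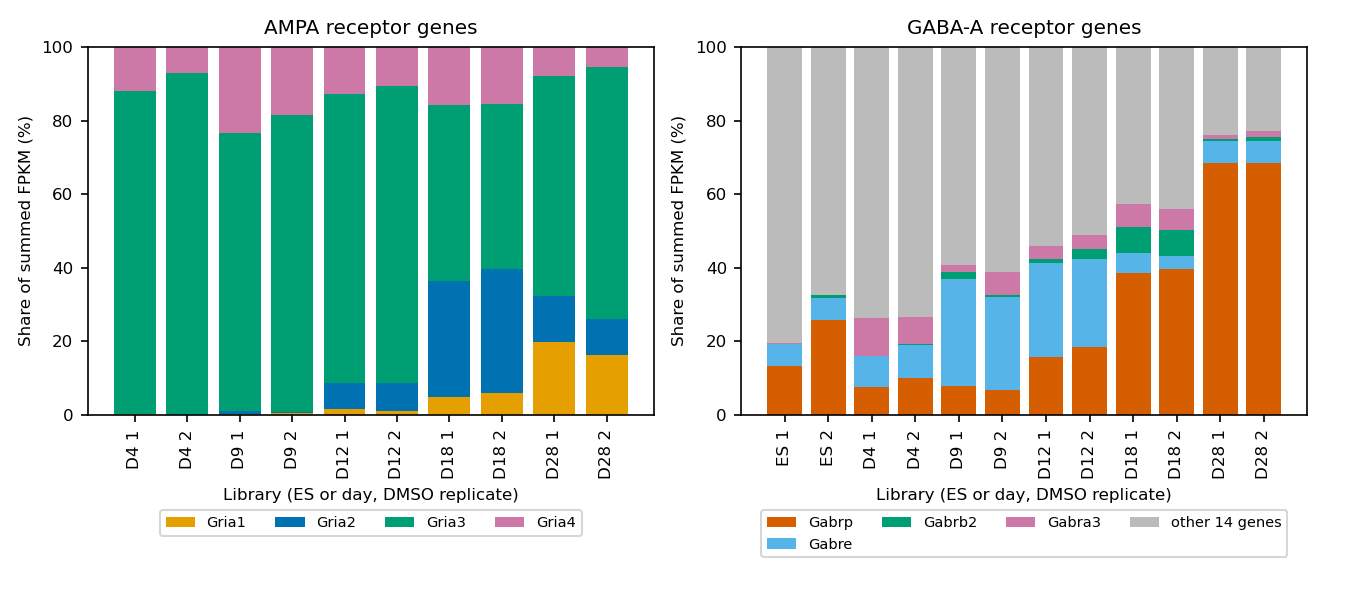
Stacked bars of the share (%) of summed FPKM held by each AMPA receptor gene (left, D4 to D28) and by Gabrp, Gabre, Gabrb2, Gabra3 and the other GABA-A receptor genes together (right, ES cells to D28), 1 bar per control library. Gria3 gives way in part to Gria2 at D18, and Gabrp grows to 68.4 and 68.5% of the GABA-A sum at D28.

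The start-site windows of Gria2 and Grm2 are shown because they hold the same pair of motifs. Both genes rose at D9 and at D12, though Gria2 had 5 counts in all in the D9 DMSO libraries, and at D18 Gria2 rose and Grm2 fell. Windows run from 250 bases before to 50 after a start (RefSeq, GRCm38.p6), were read 5′ to 3′ on the gene's strand, and were found for 31 members (38 windows). The motifs, TTNAGCACC and GGACAGC, are the half-sites of RE1, the element bound by REST, a repressor of neuronal genes outside neurons, and they were chosen after the sequences had been read. Capitals mark them, searched on both strands without overlap between them. Gria2 lies on chr3:80802786-80803085 (minus strand) and carries them on the opposite strand with 2 bases between. Grm2 lies on chr9:106656060-106656359 (minus strand) and carries them on the strand shown with 7 bases between. Gabrp, chr11:33578908-33579207 (minus strand), is set beside them as the member with the highest GABA-A level at D28, and it holds neither motif.
Gria2: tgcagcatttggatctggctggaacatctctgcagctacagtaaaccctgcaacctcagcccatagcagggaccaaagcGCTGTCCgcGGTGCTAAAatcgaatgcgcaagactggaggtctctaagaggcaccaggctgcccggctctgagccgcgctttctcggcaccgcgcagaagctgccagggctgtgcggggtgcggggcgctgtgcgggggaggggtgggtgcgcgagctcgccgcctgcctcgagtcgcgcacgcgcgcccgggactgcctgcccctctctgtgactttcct
Grm2: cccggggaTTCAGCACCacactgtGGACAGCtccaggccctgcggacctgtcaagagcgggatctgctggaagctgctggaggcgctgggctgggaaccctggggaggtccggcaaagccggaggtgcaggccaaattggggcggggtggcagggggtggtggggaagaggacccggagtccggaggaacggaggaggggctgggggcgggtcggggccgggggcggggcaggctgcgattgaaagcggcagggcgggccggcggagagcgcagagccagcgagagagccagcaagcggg
Gabrp: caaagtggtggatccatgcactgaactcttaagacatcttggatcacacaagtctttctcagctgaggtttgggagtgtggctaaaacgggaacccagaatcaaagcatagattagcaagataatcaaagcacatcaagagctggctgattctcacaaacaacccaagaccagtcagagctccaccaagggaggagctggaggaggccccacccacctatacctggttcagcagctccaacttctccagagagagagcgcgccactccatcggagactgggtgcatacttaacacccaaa
The first motif was found in 0.846%, the second in 6.56% and both in 0.0883% of the 32851 windows of that table. Gria2 and Grm2 were the members with either. The window of Gria2 holds 26 CpG dinucleotides and that of Grm2 22, against 4 in that of Gabrp and a median of 7 over all windows. The matches describe letters in these windows, and binding was not measured.

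Kainate receptor genes were led by Grik5, which encodes an auxiliary subunit that forms channels only with the products of Grik1 to Grik3. Its libraries held 15.3 and 20.4 CPM in ES cells, 49.9 and 55.6 at D4, 75.2 and 73.1 at D9, 86.7 and 81.4 at D12, 94.8 and 95.3 at D18, and 112 and 114 at D28. The rises at D4 (1.56 ± 0.10), D9 (0.49 ± 0.09) and D28 (0.24 ± 0.09) passed, and the steps to D12 and D18 did not. Grik5 overlaps Zfp574 in the annotation, and strand is not stated for the counting. Zfp574 lay between 35.2 and 55.8 CPM in the 22 libraries, and shared reads were not tested. Grik3, a channel-forming partner, fell at D9, with 28 and 26.1 CPM at D9, against 81.0 and 87.0 CPM at D4 (-1.64 ± 0.14, adjusted p = 7.81e-07). No D9 library of Grik3 came near a D4 library. It then rose at D12 (0.55 ± 0.14) and at D18 (0.44 ± 0.13), and fell at D28 (-0.91 ± 0.14).

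The remaining kainate genes were lower. Grik2 had 8.37 and 10.1 CPM at D18, against 2.08 and 2 CPM at D12 (2.18 ± 0.19), and 2.09 and 1.83 CPM at D28, so that D18 stood apart from both neighbours (-2.24 ± 0.19 at D28 against D18). Grik4, a second auxiliary subunit, had 1.39 and 1.44 CPM at D4, against 5.21 and 7.42 CPM in ES cells (-2.15 ± 0.24). It recovered in steps, to 2.65 and 2.86 CPM at D12, against 0.861 and 1.39 CPM at D9 (1.30 ± 0.26). Grik1 reached its highest control level at D18, with 1.55 and 1.59 CPM.

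NMDA receptors need the product of Grin1 and take a Grin2 or Grin3 subunit beside it. Grin1 had 3.80 and 4.06 CPM at D4, against 70.7 and 85.1 CPM in ES cells. This was the strongest fall of an NMDA gene at that step (-4.32 ± 0.14, adjusted p = 4.85e-12), and no embryoid body library came back to the ES level. It rose to 9.63 and 9.46 CPM at D9, against 3.80 and 4.06 CPM at D4 (1.28 ± 0.16). Grin1 fell at D12, to 6.47 and 4.94 CPM (-0.72 ± 0.15) and rose at D18, to 12.2 and 12.9 CPM, against 6.47 and 4.94 CPM at D12 (1.14 ± 0.14). Lrrc26, which overlaps Grin1, had at most 0.245 CPM before D28 and 4.4 and 4.30 CPM at D28 with DMSO.

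**Figure D3:**
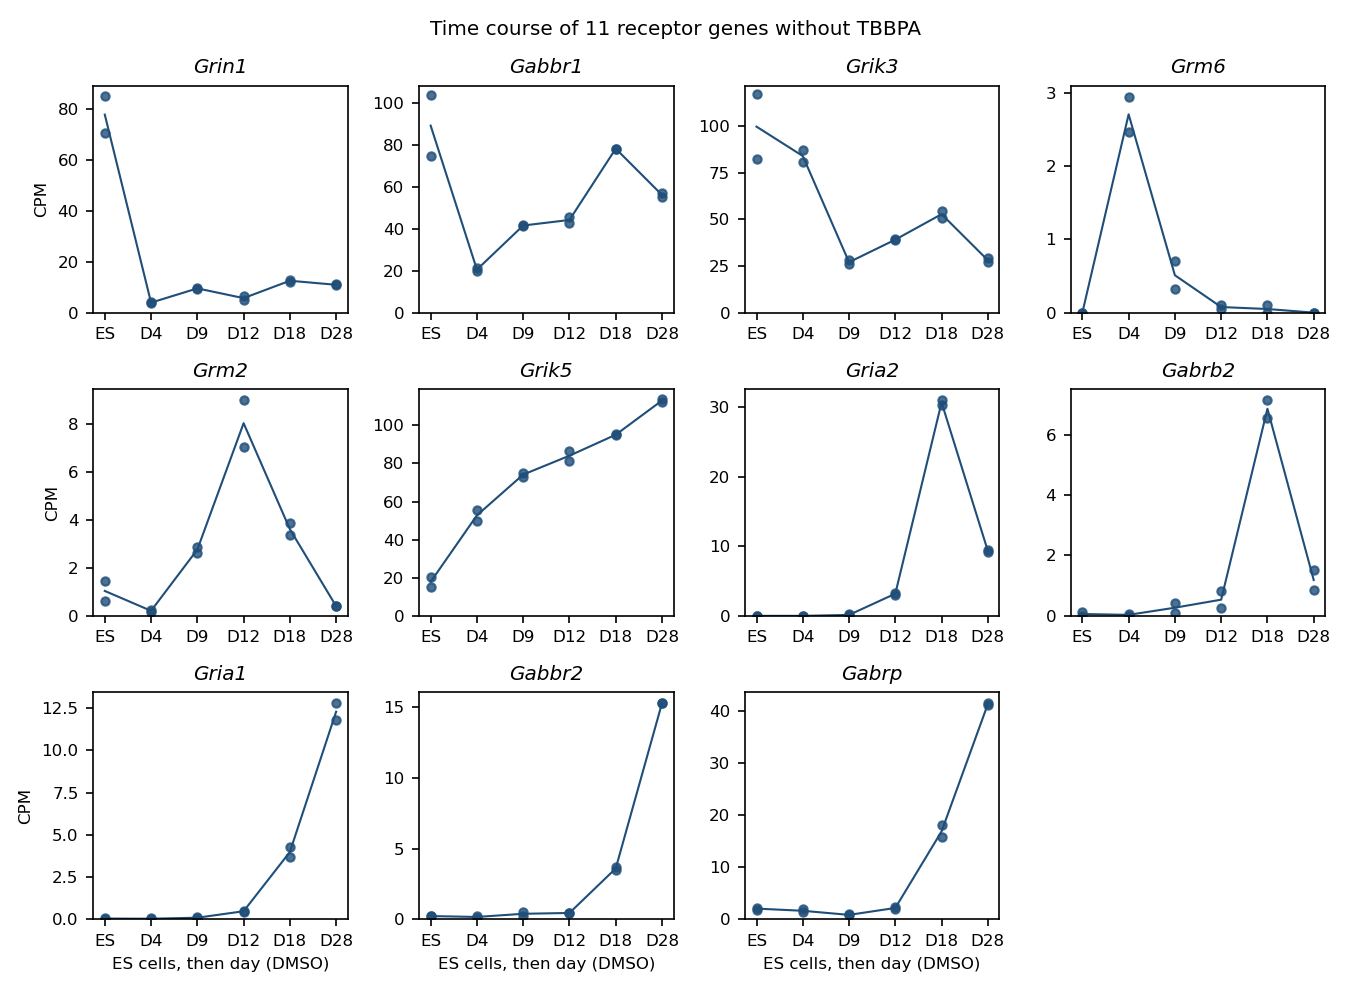
CPM of 11 receptor genes in ES cells and in DMSO embryoid bodies at D4, D9, D12, D18 and D28, with 1 point per library (n = 2 per group) and a line through the means. Grin1, Gabbr1 and Grik3 start high, Grm6 has its peak at D4 and Grm2 at D12, Gria2 and Gabrb2 at D18, and Gria1, Gabbr2, Gabrp and Grik5 end highest.

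Among the Grin2 subunits, Grin2d, a form known from the embryonic brain, had the highest FPKM of the 4 in every embryoid body library. It had 8 and 6.24 CPM at D12, against 4 and 3.16 CPM at D9 (1.01 ± 0.23), and 13.4 and 14.9 CPM at D18 (1 ± 0.20 against D12). The call at D12 was lost without the second D9 library and without the first D12 library (adjusted p of at most 0.0622). Grin2c, a subunit of cerebellum in the adult, had 1.51 and 1.80 CPM at D4, against 4.05 and 7.48 CPM in ES cells (-1.80 ± 0.34). Grin3a, which lowers calcium entry, had 2.71 and 2.58 CPM at D18, against 0.356 and 0.460 CPM at D12 (2.68 ± 0.36). Grin2a and Grin2b did not exceed 1.08 and 1.45 CPM in any library, and Grin3b did not exceed 1.08 CPM.

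Grid1, a delta receptor gene, encodes a synapse organiser that glutamate does not open. It had 0.790 and 0.917 CPM at D4, against 4.77 and 3.48 CPM in ES cells (-2.28 ± 0.31). It passed upward at D18 against D12 (0.83 ± 0.27).

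Metabotropic receptor genes showed brief peaks. Grm6, the receptor of retinal ON bipolar cells, had 2.47 and 2.95 CPM at D4 and 0 in both ES libraries, a rise of at least 29.6-fold over a floor of 3 counts. It had 0.323 and 0.699 CPM at D9 (-2.39 ± 0.42 against D4) and was at 0 at D28. Grm2, an inhibitory presynaptic receptor, had 9.01 and 7.06 CPM at D12, against 2.64 and 2.89 CPM at D9 (1.55 ± 0.23). It was the member that fell between D12 and D18, to 3.36 and 3.87 CPM (-1.14 ± 0.22), and it had 0.400 and 0.404 CPM at D28 (-3.15 ± 0.35 against D18).

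Grm4, another presynaptic inhibitory receptor, was present throughout. Its control libraries lay between 2.74 and 7.62 CPM, and it held 40.2 to 80.7% of the summed metabotropic FPKM in them. Grm3, known from astrocytes as well as neurons, was at 0 in both D12 libraries and had 1.45 and 0.942 CPM at D18, at least 15.6-fold higher. Grm5, Grm7 and Grm8 did not exceed 1.65 CPM in any library, yet all 3 passed upward at D18 against D12.

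GABA-A channels are pentamers, in the brain mostly of alpha, beta and gamma subunits. Gabrb2, a beta subunit, had 6.57 and 7.15 CPM at D18, against 0.255 and 0.818 CPM at D12 (3.67 ± 0.42).

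Gabrb2 did not stay at its D18 level. It had 0.857 and 1.52 CPM at D28, against 6.57 and 7.15 CPM at D18 (-2.53 ± 0.36). Gabra3, an alpha subunit of the developing brain, had peaks at D4 (2.12 and 1.58 CPM) and at D18 (2.83 and 3.06 CPM). At D28 it stood at 0.800 and 0.968 CPM (-1.75 ± 0.32 against D18). Gabra2, Gabra5, Gabrb1 and Gabrg3 did not exceed 1.45 CPM in any library. The listed length of Gabrb1 differed between libraries (4859 to 14268 bases), as it did by over 1.5 times for 17 members, so its FPKM and counts need not move alike.

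Gabrp, the pi subunit, best known from uterus and other epithelia, became the dominant GABA-A gene. It had 1.93 and 2.35 CPM at D12, against 0.915 and 0.697 CPM at D9 (1.42 ± 0.26), after a fall at D9 against D4 (-0.98 ± 0.28). It had 15.7 and 18 CPM at D18, against 1.93 and 2.35 CPM at D12 (2.98 ± 0.16, adjusted p = 7e-09). At D28 it had 41.1 and 41.5 CPM (1.29 ± 0.12 against D18), and it held 68.4 and 68.5% of the GABA-A FPKM there, against 38.6 and 39.6% at D18. Every D28 library lay above every D18 library. Of 6 epithelial markers 4 rose and none fell at D28 against D18, with a sum of 1481 and 1524 CPM at D28, against 1242 and 1254 CPM at D18, and none was at 0. At D18 against D12, 2 epithelial markers rose and 3 fell, and their part in the Gabrp change was not tested. Gabre, the epsilon subunit, ended at 3.54 and 3.60 CPM at D28, against 2.25 and 1.45 CPM at D18 (0.95 ± 0.26).

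The GABA-B receptor joins the product of Gabbr1, which binds GABA, to that of Gabbr2, which couples to G proteins and brings the complex to the surface. Gabbr1 had 19.7 and 21.4 CPM at D4, against 74.6 and 104 CPM in ES cells (-2.12 ± 0.13). It rose to 41.8 and 41.4 CPM at D9 (1.02 ± 0.13 against D4) and to 78.3 CPM in both libraries at D18, against 45.8 and 42.7 CPM at D12 (0.83 ± 0.12). Gabbr2 lagged behind. It had 3.71 and 3.47 CPM at D18, against 0.407 and 0.460 CPM at D12 (3.04 ± 0.30), and 15.3 CPM in both libraries at D28 (2.09 ± 0.18 against D18). At D28 Gabbr1 fell, to 57.1 and 55.3 CPM, against 78.3 CPM in both libraries at D18 (-0.48 ± 0.12, adjusted p = 0.00361). Gabbr2 made up 23.2 and 23.6% of the GABA-B FPKM at D28, against 5.04 and 4.75% at D18.

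Genes that work with these receptors were counted from lists of the pathway. At D18 against D12, 37.7% of all genes passed, 20.7% upward and 17.1% downward. Of 13 glutamate receptor auxiliary subunits, 7 rose and none fell at D18 against D12, with a median log2 change of 1.06. The smallest p-values were those of Cnih2 (1.42 ± 0.13), Neto2 (1.29 ± 0.14) and Cacng4 (1.43 ± 0.16). Of 15 genes of transmitter synthesis and transport, one of which (Slc1a3) also stands in the radial glia list, 13 rose and 2 fell. Among those that rose was the GABA-synthesising enzyme Gad2 (2.56 ± 0.16). Of 10 tested inhibitory postsynaptic and GABA-B associated genes, 9 rose and none fell, led by Kctd12 (1.36 ± 0.11) and Lhfpl4 (1.46 ± 0.13). Of 20 excitatory scaffold genes, 8 rose and 2 fell, with Dlg4 (PSD-95) at 0.63 ± 0.07.

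At D28 against D18 more genes fell than rose in each of these lists, where 53% of all genes passed, 24.9% upward and 28.1% downward. Of the auxiliary subunits 8 fell and 2 rose, with Cacng2 (stargazin) at -2.49 ± 0.29 and Shisa9 at 2.62 ± 0.22. Of the scaffold genes 11 fell and 1 rose, and of the synthesis and transport genes 8 fell and 4 rose. The vesicular glutamate transporter Slc17a6 fell by 3.10 ± 0.16 and Gad2 by 3.23 ± 0.17 on the log2 scale, while the GABA transporter Slc6a13 rose by 2.97 ± 0.17. Of the inhibitory postsynaptic genes 5 fell and 1 rose, with Lhfpl4 at -2.40 ± 0.14.

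Whether TBBPA changed the receptor genes was asked at each day by setting the 10 nM and 100 nM libraries together against the DMSO pair. At D4 and D9 edgeR passed 0 of 42 members, and DESeq2 0 at either day. At an unadjusted p under 0.05 there were 6 members at D4, beside 10.3% of all genes, and 5 at D9, beside 13.1% of all genes. Of all 16383 genes, 0.458% passed at D4 (0.0855% upward, 0.372% downward) and 2.34% at D9 (1.37% upward, 0.964% downward). The smallest p at D9 was that of Gria2, with 0.591 and 0.546 CPM with TBBPA, against 0.215 and 0.0536 CPM with DMSO (adjusted p = 0.069). The smallest at D4 were those of Gabrb1, at 0 in both TBBPA libraries, against 0.241 and 0.180 CPM with DMSO (adjusted p = 0.301), and of Gria4, with 1.86 and 1.33 CPM with TBBPA, against 1.08 and 0.662 CPM with DMSO (adjusted p = 0.32).

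At D12 6 members rose with TBBPA and none fell, where 21.1% of all genes passed, 11.9% upward and 9.19% downward. DESeq2 gave 6 up and 1 down, and fitting the 4 D12 libraries alone gave 7 up and 1 down. Grik5 had 114 CPM in both TBBPA libraries, against 86.7 and 81.4 CPM with DMSO (log2 change 0.44 ± 0.08, adjusted p = 0.000306). Grm2 had 13 and 17.4 CPM with TBBPA, against 9.01 and 7.06 CPM with DMSO (0.92 ± 0.20). Grm4 had 12.8 and 11.1 CPM with TBBPA, against 6.42 and 6.45 CPM with DMSO (0.89 ± 0.20). In all 3 genes both TBBPA libraries lay above both DMSO libraries, as in 37.5% of all genes at D12. Genes that passed were picked by a test on the same libraries, so here and below such separation adds no evidence.

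The other 3 genes that passed at D12 were Gria4, Gabrb2 and Gabbr1. Gria4 had 3.98 and 4.17 CPM with TBBPA, against 2.29 and 2.23 CPM with DMSO (0.84 ± 0.23). Gabrb2 had 1.51 and 1.83 CPM with TBBPA, against 0.255 and 0.818 CPM with DMSO (1.62 ± 0.45). Gabbr1 had 52.9 and 60.6 CPM with TBBPA, against 45.8 and 42.7 CPM with DMSO (0.36 ± 0.11, adjusted p = 0.0204). In all of them both TBBPA libraries lay above both DMSO libraries, as in 37.5% of all genes at D12. Grik3 did not pass, with 26.4 and 31.5 CPM with TBBPA, against 38.9 and 39.4 CPM with DMSO. Both of its TBBPA libraries lay below both DMSO libraries, as in 28.3% of all genes. The count of 6 was 3 without the first or without the second DMSO library, 2 without the 100 nM library, and 7 (6 up, 1 down) without the 10 nM library. Grik5 alone of the 6 passed under every alternative tried, with an adjusted p of at most 0.0472.

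At D18 8 members rose with TBBPA and none fell, where 10.5% of all genes passed, 5.96% upward and 4.56% downward. In sign alone, 39 of 42 members were higher with TBBPA, beside 54.7% of all genes. Gria1 showed the smallest p, with 10.4 and 9.05 CPM with TBBPA, against 3.69 and 4.27 CPM with DMSO (1.29 ± 0.18, adjusted p = 6.53e-05). Gria2 had 40.3 and 51.1 CPM with TBBPA, against 30.3 and 31.0 CPM with DMSO (0.58 ± 0.13). Grik1 had 3.25 and 3.17 CPM with TBBPA, against 1.55 and 1.59 CPM with DMSO (1.03 ± 0.29). Both TBBPA libraries of these genes lay above both DMSO libraries, as in 31.3% of all genes at D18.

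In another 4 that passed at D18 both TBBPA libraries also lay above both DMSO libraries, as in 31.3% of all genes. Grik5 had 114 and 124 CPM with TBBPA, against 94.8 and 95.3 CPM with DMSO (0.32 ± 0.08). Gabrb2 had 13.3 and 11.5 CPM with TBBPA, against 6.57 and 7.15 CPM with DMSO (0.85 ± 0.25). For the GABA-B receptor, both genes passed. Gabbr1 had 108 and 104 CPM with TBBPA, against 78.3 CPM in both DMSO libraries (0.44 ± 0.10), and Gabbr2 had 8.21 and 5.29 CPM with TBBPA, against 3.71 and 3.47 CPM with DMSO (0.91 ± 0.22).

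The D18 calls leaned on all 4 libraries. The count of 8 was 1 without the first and 1 without the second DMSO library, 5 without the 10 nM library and 4 without the 100 nM library. Gria1 passed under every alternative tried, with an adjusted p of at most 0.0366. The DMSO pair had a chi-square of 2.27 per gene and the TBBPA pair 6.55.

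**Figure D4:**
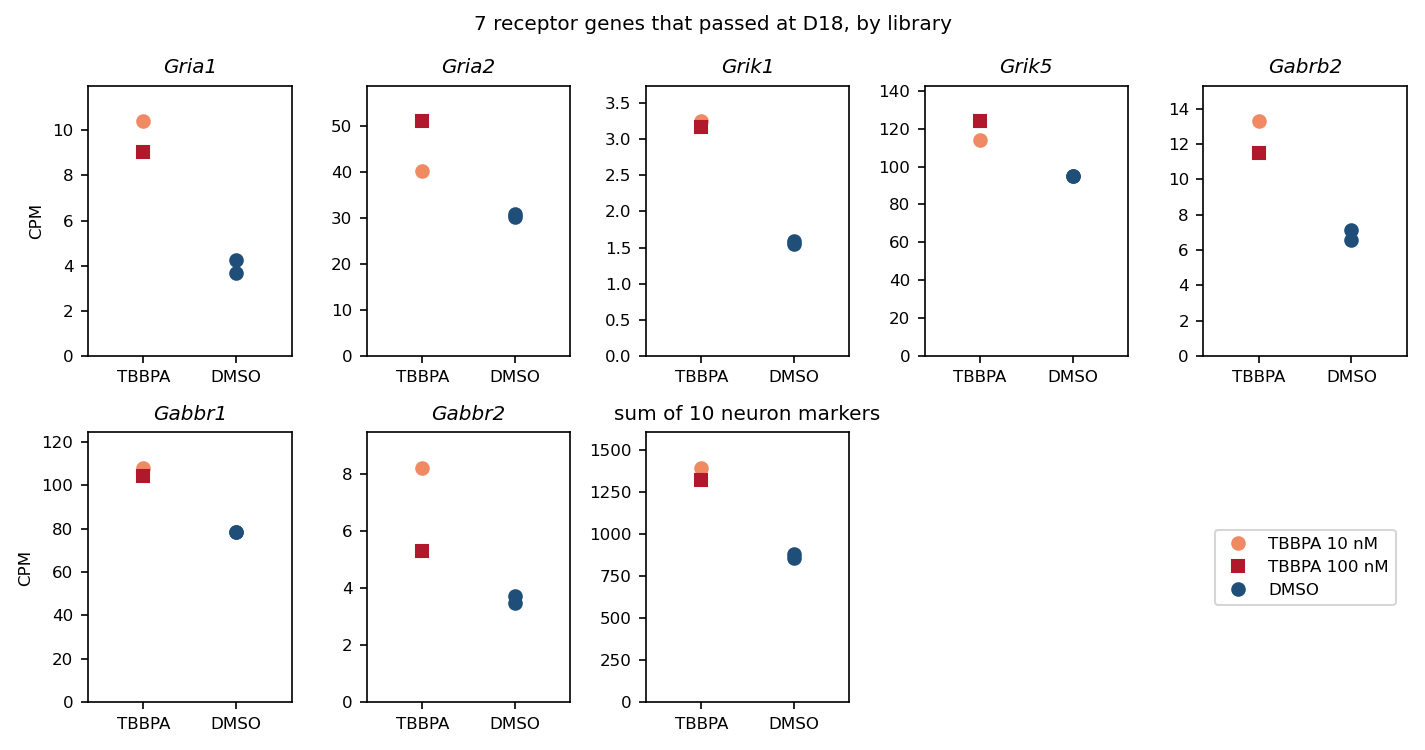
CPM at D18 of 7 receptor genes that passed and the summed CPM of 10 neuron markers, with TBBPA libraries (10 nM circle, 100 nM square) left of the 2 DMSO libraries. Axes start at 0, and in every panel both TBBPA points lie above both DMSO points.

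Neuron markers moved with these genes. At D12 9 of 10 rose with TBBPA and none fell, with a sum of 766 and 823 CPM with TBBPA, against 396 and 415 CPM with DMSO. At D18 all 10 rose, with a sum of 1395 and 1320 CPM with TBBPA, against 859 and 885 CPM with DMSO. None of the 10 was at 0 in either group. Radial glia and astrocyte markers rose in 3 of 7 at D12 and 4 of 7 at D18, with none down, and summed at D18 to 409 and 392 CPM with TBBPA, against 285 and 277 CPM with DMSO. All 7 pluripotency markers fell at D12, to a sum of 618 and 616 CPM with TBBPA, against 992 and 958 CPM with DMSO. At D12 4 of 6 fibroblast and 4 of 6 epithelial markers fell as well. At D18 6 of 6 fibroblast markers fell, to a sum of 3756 and 2493 CPM with TBBPA, against 5383 and 5698 CPM with DMSO. Muscle markers fell at D18 in 6 of 7, to a sum of 74.0 and 59.2 CPM with TBBPA, against 150 and 146 CPM with DMSO. The part of these cell types in the receptor changes was not tested.

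At D28 the one member that passed was Gria3, which fell, where 7.09% of all genes passed, 3.65% upward and 3.44% downward. It had 16.9 and 18.6 CPM with TBBPA, against 22.2 and 27.0 CPM with DMSO (-0.47 ± 0.12, adjusted p = 0.0164). Both TBBPA libraries lay below both DMSO libraries, as in 25.1% of all genes at D28, but Gria3 no longer passed without the second DMSO library, the 10 nM library or the 100 nM library. Gabbr2 had 23.5 and 21.1 CPM with TBBPA, against 15.3 CPM in both DMSO libraries (0.54 ± 0.18, adjusted p = 0.0787). Neuron markers summed to 193 and 177 CPM with TBBPA, against 159 and 151 CPM with DMSO, and 3 of 10 rose. Muscle markers, of which 3 of 7 fell, summed to 128 and 122 CPM with TBBPA, against 208 and 219 CPM with DMSO. Fibroblast markers, of which 3 of 6 fell and none rose, summed to 9096 and 9877 CPM with TBBPA, against 14168 and 14746 CPM with DMSO. Of 6 endoderm and yolk sac markers 3 rose and none fell. Radial glia and astrocyte markers, of which 1 of 7 rose and none fell, summed to 1457 and 1336 CPM with TBBPA, against 1082 and 1094 CPM with DMSO. Oligodendrocyte lineage markers, of which 2 of 7 rose and none fell, summed to 453 and 404 CPM with TBBPA, against 347 and 355 CPM with DMSO. The part of these cell types in the Gria3 change was not tested.

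**Figure D5:**
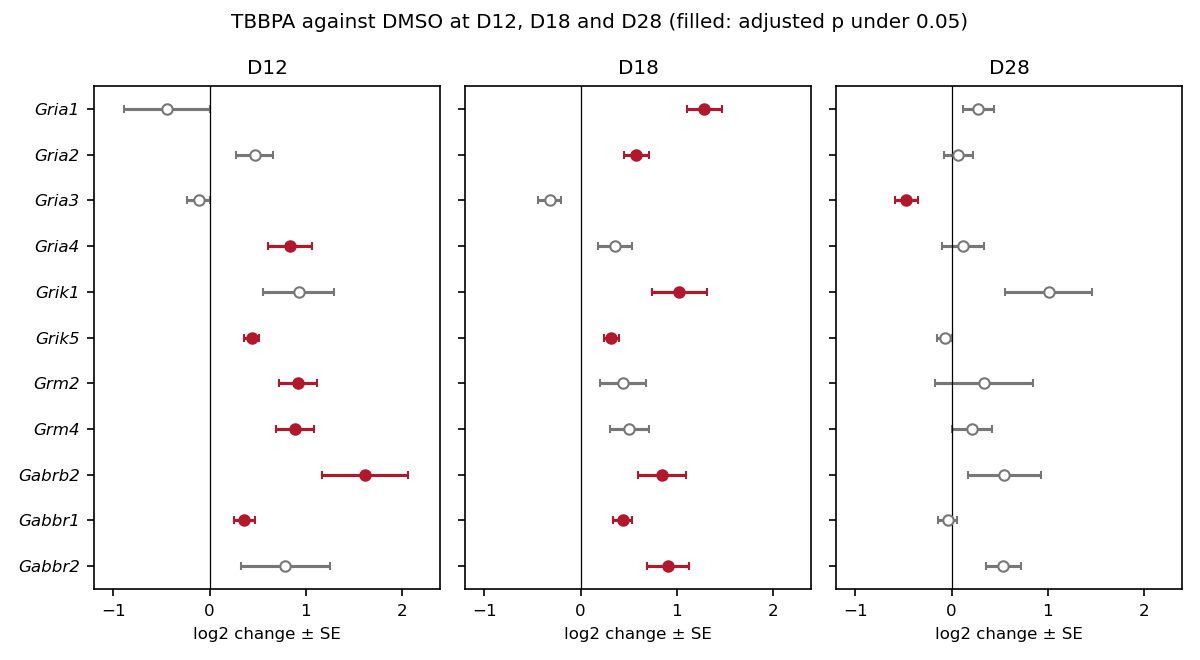
Log2 change with TBBPA against DMSO (points, with SE bars, log2 scale) at D12, D18 and D28 for 11 receptor genes that passed at one of these days. Filled points passed at an adjusted p under 0.05: 6 at D12, 7 at D18 and, below 0, Gria3 at D28.

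Whether the effect of TBBPA differed between the days was tested across all 5 days, and 3 members passed (10.4% of all genes). Gria1 had an adjusted p of 0.0266, with a log2 change of -0.44 ± 0.45 at D12, 1.29 ± 0.18 at D18 and 0.28 ± 0.16 at D28. Grik5 had an adjusted p of 0.016, with 0.44 ± 0.08 at D12, 0.32 ± 0.08 at D18 and -0.07 ± 0.08 at D28. Gabbr1 had an adjusted p of 0.0194, with -0.20 ± 0.11 at D9, 0.36 ± 0.11 at D12, 0.44 ± 0.10 at D18 and -0.04 ± 0.10 at D28. Differences between single days were not tested. Without D12, and likewise without D28, no member passed this test.

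With an effect per dose fitted as common to the 5 days, and averaged over the doses, 13 of 41 members rose with TBBPA and 1 fell. Of all genes 22.1% passed in this fit, 11.7% upward and 10.4% downward. This is not a plain mean of the days, as days with more counts weigh more. The changes of Gria1, Grik5 and Gabbr1 differed between days, so a common effect need not hold for them at each day. Among the smallest p-values were those of Grik1 (0.95 ± 0.18), Gabrb2 (0.93 ± 0.18), Grm2 (0.56 ± 0.13), Gabra3 (0.63 ± 0.15), Gria1 (0.64 ± 0.16) and Gria2 (0.42 ± 0.11), all upward. Gabbr2, Gria4, Grik4, Grik5 and Grm4 rose too, and Gria3 fell (-0.22 ± 0.07). No member fell without D4, without D12 or without D28, and 1 fell without D9 and without D18. The count of 14 was 7 without D12 and 4 without D18. All 10 neuron markers rose in this fit.

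The doses were set against each other in the same fit, as effects common to the days. For 100 nM minus 10 nM, edgeR passed 0 of 41 members and 0 of 16059 genes, so that 0% of all genes passed, and DESeq2 passed 0 members. There were 5 members at an unadjusted p under 0.05, beside 6.38% of all genes. The smallest p was that of Grin3a, at -0.71 ± 0.23 (adjusted p = 0.546), followed by Grm3, at -1 ± 0.42 (adjusted p = 0.743). In single libraries Grin3a had 2.27 CPM with 100 nM and 5.40 CPM with 10 nM at D18. A p above the threshold does not show that the doses act alike.

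Receptor partners were counted in the same TBBPA tests. Of all genes, 21.1% passed at D12 (11.9% upward, 9.19% downward) and 10.5% at D18 (5.96% upward, 4.56% downward). Of the 13 auxiliary subunits, 7 rose and none fell at D12, with Cacng4 (0.92 ± 0.18), Gsg1l (0.91 ± 0.19) and Cacng3 (1.52 ± 0.32) first, and 4 rose and none fell at D18, led by Cnih2 (0.65 ± 0.12). Of the 15 synthesis and transport genes, 5 rose and 2 fell at D12, and 5 rose and none fell at D18. Among them the glutamate transporter Slc1a2 rose at D12 (0.84 ± 0.13) and at D18 (0.61 ± 0.12), and Slc17a6 at D12 (1.01 ± 0.18). Of the 10 inhibitory postsynaptic genes, 5 rose and 1 fell at each of these days. Lhfpl4, which anchors GABA-A receptors at synapses, rose at D12 (0.95 ± 0.15) and at D18 (0.74 ± 0.13), while Slc12a2, a chloride importer, fell at D18 (-0.55 ± 0.11). Of the 20 scaffold genes, 5 rose and 1 fell at D12 and again at D18, with Dlg4 at 0.36 ± 0.09 at D12 and 0.31 ± 0.08 at D18. At D28, where 7.09% of all genes passed (3.65% upward, 3.44% downward), 0 auxiliary subunits passed and 1 scaffold gene rose. Of the synthesis and transport genes 2 rose and 2 fell there, and of the inhibitory postsynaptic genes 2 fell and none rose. At D4 (0.458% of all genes) 1 scaffold gene fell. At D9 (2.34% of all genes) 1 synthesis and transport gene rose, and no other partner passed at these 2 days.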

How the data were processed

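RNA from 22 samples was sequenced. Per the labels' protocols, RNA was extracted with Trizol and an RNeasy Plus kit. The submitters' processing notes name HISAT, Bowtie2 and build GRCm38.p5; the counting tool and any use of strand were not given in the sources used here. Each deposited table holds the authors' estimated counts per gene, not normalized. It also holds the authors' FPKM, scaled by gene length and depth. A gene absent from a library's table was taken as 0.

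Estimated counts were rounded to whole numbers, genes were kept by filterByExpr (minimum count 10, minimum total 15), scaled by TMM, and tested by edgeR's quasi-likelihood test with robust dispersions. Adjusted p-values are Benjamini-Hochberg values across every gene in the fit, called under 0.05. Steps in time were fitted on the 12 control libraries (6 residual degrees of freedom). TBBPA was fitted by day on 22 libraries in 11 groups, with both doses as one pair (11 degrees of freedom). It was also fitted over days on the 20 embryoid body libraries, with day as a term and an effect per dose common to the days (13 degrees of freedom). Of the 46 members, 40, 42 and 41 passed the filter in these fits; 21 were listed in every library. Gene symbols are those of the deposited tables, and start-site windows are RefSeq's on GRCm38.p6.

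Values per library are given for the member with the highest FPKM at D28 in each class, for up to 6 members with the largest change at each step, and for each TBBPA comparison for the members that passed, or the 8 (2 where none passed) of smallest p. Other members named were chosen after their values were seen. The members and lists were chosen with earlier results of these data known. Some members and partner genes are counted but not reported by name here. The fits were tested on simulated counts. R 4.3.3, edgeR 4.0.16, limma 3.58.1, DESeq2 1.42.0, Python 3.11.15 and matplotlib 3.10.9 were used. Alternatives were DESeq2, other scalings and filters, limma on log2 FPKM with a pseudocount of 1 or 0.1, each dose alone, DMSO pairs summed, and libraries or days left out.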

Additional observations from a re-analysis of the deposited data

Results flagged for a closer look

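In 3 of 42 members the change with TBBPA differed between the days by the test of that difference over all 5 days (edgeR, Benjamini-Hochberg adjusted). Of all genes, 10.4% passed this test. Without D12, and likewise without D28, no member did. The adjusted p was 0.0266 for Gria1, whose log2 change was 1.29 ± 0.18 at D18 and 0.28 ± 0.16 at D28. It was 0.016 for Grik5, with 0.44 ± 0.08 at D12 and -0.07 ± 0.08 at D28. It was 0.0194 for Gabbr1, with 0.44 ± 0.10 at D18 and -0.20 ± 0.11 at D9. Neuron markers rose in 3 of 10 at D9, 9 of 10 at D12, 10 of 10 at D18 and 3 of 10 at D28. Their part in these differences was not tested. No group had the 4 samples needed to look for a sample that stands apart.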

How the results depend on the processing

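Alternatives were run for the members that the naming rule picked in each comparison (up to 6 per step in time), not for every change the text names. Among these none changed direction: of 488 values for steps in time 7 lost their call, and of 469 for TBBPA 115 did. The counts of members that passed moved by over 1.5 times as follows, and the cause was not tested. With limma on log2(FPKM + 1) they were 9 for D4 against ES, 10 for D9 against D4, 14 for D18 against D12, 16 for D28 against ES, 3 for TBBPA at D28, 7 for the difference between days and 7 for TBBPA over days. With a pseudocount of 0.1 they were 9, 10, 13 and 17 for those 4 steps, 11 for D28 against D18, 4 for TBBPA at D18, 1 for the difference between days and 8 over days. With no filter on FPKM (pseudocount of 1) the same 4 steps did not move so far. They passed 18, 13, 29 and 35 members, beside 17, 19, 30 and 36 with edgeR. The counts that moved were then 16 for TBBPA at D18, 4 at D28, 9 for the difference between days and 7 over days. Fitting the 4 libraries alone gave 3 at D28. The 10 nM library alone gave 2 at D12, 5 at D18 and 0 at D28, and the 100 nM library alone 5 at D18 and 0 at D28. With each DMSO pair summed they were 2 at D12, 1 at D18, 0 at D28, 0 for the difference between days and 4 over days.

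Leaving out 1 library gave 7 to 10 members for D12 against D9, and for TBBPA 2 to 7 at D12, 1 to 5 at D18 and 0 to 1 at D28. Leaving out 1 day gave 0 to 4 for the difference between days and 4 to 14 over days. With the replicate block, the steps in time passed 17, 19, 13, 28, 18 and 36 members. Same-numbered libraries did not deviate together (correlations of -0.03 to 0.15 over 15 pairs of groups), so the numbers were not taken to pair them, and TBBPA groups hold 1 library per dose, which left no block there. Under DESeq2's size factors 47.3% of the genes that passed with TBBPA at D12 were higher, beside 56.4% under TMM, and 6 members rose and none fell under both. Under library size alone the genes higher at D9 against D4 were 64.6%, beside 52.5% under TMM, and at D12 against D9 65.6%, beside 52.8%; the median of all genes was then 0.15 at D9 against D4 and 0.43 at D28 against ES. Depth limits genes under 1 CPM, which hold about 20 counts or fewer per library.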

Other observations

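Gabrq, which was not tested in the control libraries, had 0.501 and 0.496 CPM at D18 with DMSO and lies beside Gabra3 in the annotation. Gabra4 had 1.10 and 0.554 CPM at D18 with TBBPA, against 0.351 and 0.198 CPM with DMSO. It did not pass (1.57 ± 0.56 on the log2 scale, edgeR adjusted p = 0.0817), rests on 22 and 11 counts with TBBPA, against 7 and 4 with DMSO, and overlaps Gabrb1 in the annotation.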
